A study of Mus musculus with 2 samples.

Results

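The cells described here are the mesenchymal cells of fat that surrounds the mouse aorta (perivascular adipose tissue) in which the largest share of the transcripts came from 4 contractile genes. They number 1355 of the 27740 cell barcodes in 2 single-cell RNA libraries, 700 from the young and 655 from the old library. A barcode counted as mesenchymal when it had at least 500 detected genes, at most 10% mitochondrial unique molecular identifiers (UMIs, each a tag for 1 captured transcript), at least 10 UMIs of the fibrillar collagen genes Col1a1, Col1a2 and Col3a1 together and at least 5000 CPM of Malat1, where CPM are UMIs scaled to the same total in every cell or set of cells. It also had to hold 0 UMIs of 7 genes that mark endothelial (Pecam1, Cdh5), blood (Ptprc), mesothelial (Upk3b), Schwann (Sox10) and cycling cells (Top2a, Mki67). These conditions left 7001 of 13104 young and 6552 of 14636 old barcodes. Within each library the mesenchymal cells were ranked by the summed UMIs of Acta2, Tagln, Cnn1 and Myl9 over all UMIs of the cell, and the highest 10% are called the top cells below. The other 6301 young and 5897 old mesenchymal cells are the remaining cells.

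The series compared stromal cells from wild-type (WT) mice labelled young and old, 1 library each. Fat dissected from the aorta was digested in collagenase, strained and cleared of red blood cells, and the libraries were made with the Chromium 3′ v2 kit. The labels used here give no exact age, sex, number of mice per library or part of the aorta. With 1 library per age there is no replicate check, no p-value is given, and age and library cannot be told apart. Intervals are 95% limits for counting error only.

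Acta2 encodes smooth muscle α-actin and Tagln the actin-binding protein SM22α. Cnn1 encodes calponin, which binds actin and slows the myosin motor, and Myl9 encodes a regulatory light chain of that motor. Smooth muscle cells of the arterial wall hold much of all 4 proteins, and fibroblasts that turn into contractile myofibroblasts gain the first of them. Many genes of this programme are controlled by serum response factor, which binds a short DNA element called the CArG box, together with cofactors that respond to the state of the actin skeleton.

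The share of the 4 genes formed a continuous range with no gap at the border. In the young library it was 0.254% in the median remaining cell and 0.892% in the median top cell (quartiles 0.779% and 1.1%, highest 3.33%). In the old library the medians were 0.145% and 0.809% (quartiles 0.670% and 0.998%, highest 3.0%). The last young cells inside the border stood at 0.7006%, 0.7007% and 0.7010%, and the first outside at 0.7002%, 0.6999% and 0.6996%. The old border lay lower, with 0.5799% and 0.5802% inside and 0.5797%, 0.5795% and 0.5788% outside. Of the top cells, 165 young (23.6%) and 125 old (19.1%) lay within 10% of the border, as did 213 and 152 remaining cells. The top cells are thus the upper end of a range of this share, and whether a separate type lies among them was not tested. Only 35 young and 101 old remaining cells had 0 UMIs of all 4 genes.

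**Figure D1:**
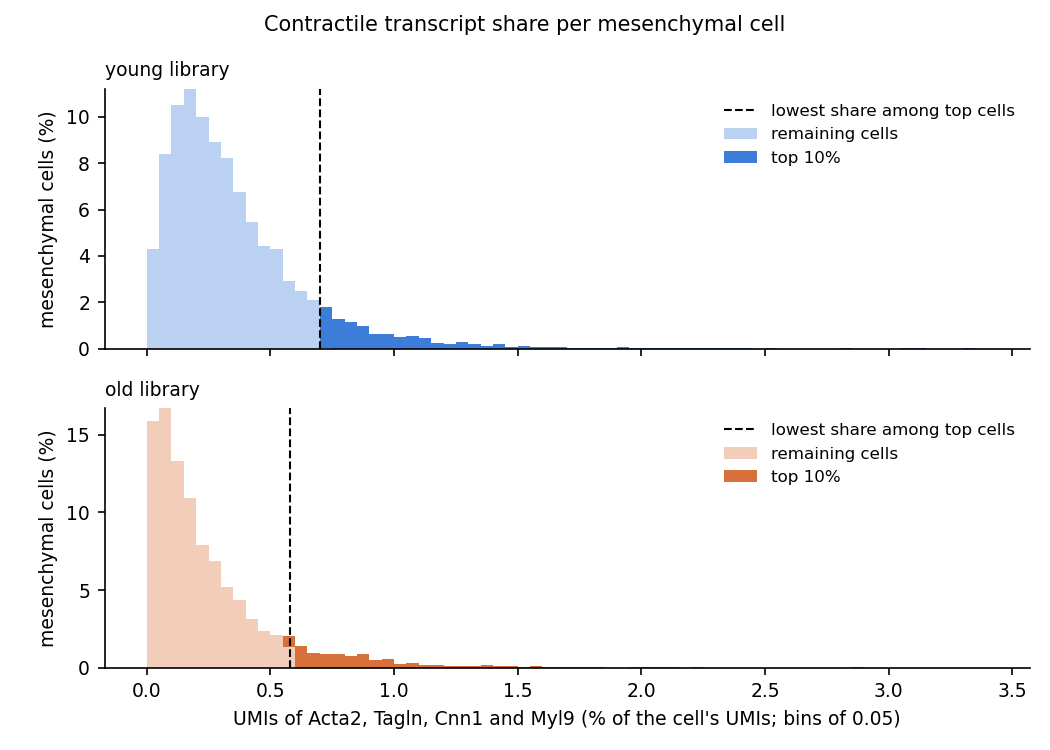
Percent of the mesenchymal cells (y axis) by the share of their UMIs from Acta2, Tagln, Cnn1 and Myl9 (x axis, percent) in the young and the old library, with top cells in full colour and the border as a dashed line. Each distribution has 1 main mass and a long upper tail, and the border lies at 0.701% in the young library and 0.580% in the old.

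The top cells were somewhat deeper than the others. Their median UMI number was 9832 against 8349 in the young and 10756 against 8422 in the old library, with 2636 against 2417 and 2912 against 2595 detected genes. Median mitochondrial shares were 2.49% against 2.68% and 2.13% against 2.34%. The number of collagen UMIs was alike, with a median of 54.0 in young top and remaining cells and of 43.0 and 42.0 in the old library. The libraries shared 275 barcode sequences, none of them among the top cells of both. Putative doublets were not removed. Scrublet marked 0 cells with its own threshold and so did not work, and removing its highest scores took out 51 young (7.29%) and 48 old top cells (7.33%).

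The name was checked against markers. Summed levels of 8 fibroblastic markers (Col1a1, Col1a2, Col3a1, Dcn, Lum, Pdgfra, Dpt, Fn1) were 7235 CPM in young and 6371 CPM in old top cells, against 8671 and 8471 CPM in the remaining cells, and the collagen floor chose for them. Summed levels of 10 smooth muscle markers outside the ranking were 888 CPM in young and 754 CPM in old top cells, against 193 and 144 CPM. Most of this sum was 1 gene, Actg2, with 3559 of 6561 UMIs in young and 4237 of 5783 UMIs in old top cells. Reads of Actg2 may be split with those of the ranking gene Acta2, as described below. A median young top cell held 5 and a median old top cell 4 UMIs of these 10 genes, against 1 in remaining cells of each library. Pln, which encodes the calcium pump regulator phospholamban, stood at 0 UMIs in both sets of top cells. Myocd, the smooth muscle cofactor of serum response factor, had 6 UMIs over the 700 young and 1 over the 655 old top cells. A count of 0 allows up to 0.406 CPM in young and 0.391 CPM in old top cells. The rule asked for collagen UMIs and ranked by contractile UMIs, so holding both was set by the choice of cells. Barcodes under the collagen floor are described near the end.

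The 250 bases before the annotated start are shown for the ranking genes that have a window in the RefSeq promoter table, and for Vcl (vinculin, an adhesion protein linked to actin), because the CArG box belongs to the background of this programme. Capitals mark a CArG box, either with an uninterrupted A or T core or with 1 core base changed to C or G, both of which read as a box on either strand. Sequences are from RefSeq, build GRCm38.p6, 5′ to 3′ on the strand of the gene. Acta2 is on the reverse strand at chr19:34255374-34255623, and Cnn1 at chr9:22099003-22099252, Myl9 at chr2:156775214-156775463 and Vcl at chr14:20929148-20929397 are on the forward strand.
Acta2: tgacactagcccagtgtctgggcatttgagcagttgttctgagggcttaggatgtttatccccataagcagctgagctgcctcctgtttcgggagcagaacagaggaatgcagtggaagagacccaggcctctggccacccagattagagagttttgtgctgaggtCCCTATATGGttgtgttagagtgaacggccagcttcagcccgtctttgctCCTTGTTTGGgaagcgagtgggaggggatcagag
Cnn1: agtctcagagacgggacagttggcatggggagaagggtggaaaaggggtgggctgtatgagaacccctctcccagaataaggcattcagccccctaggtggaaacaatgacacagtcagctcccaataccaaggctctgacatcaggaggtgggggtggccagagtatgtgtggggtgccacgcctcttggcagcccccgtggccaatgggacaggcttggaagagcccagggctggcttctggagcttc
Myl9: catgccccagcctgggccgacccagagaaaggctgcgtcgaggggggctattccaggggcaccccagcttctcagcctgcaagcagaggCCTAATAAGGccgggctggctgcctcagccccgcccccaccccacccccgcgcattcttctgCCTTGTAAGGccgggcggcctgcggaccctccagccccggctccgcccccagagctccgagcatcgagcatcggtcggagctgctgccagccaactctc
Vcl: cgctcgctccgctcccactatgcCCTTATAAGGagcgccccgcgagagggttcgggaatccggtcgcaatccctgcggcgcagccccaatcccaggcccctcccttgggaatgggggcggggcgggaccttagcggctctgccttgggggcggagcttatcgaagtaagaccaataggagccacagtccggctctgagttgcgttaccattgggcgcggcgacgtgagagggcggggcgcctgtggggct

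The window of Acta2 held 2 boxes with 1 change, starting 84 and 34 bases before the start. For Acta2, Cnn1 and Myl9 this RefSeq start lies inside the gene span of the GENCODE annotation given below, so the windows partly overlap these spans. The 2 boxes of Acta2 lie within its span. Myl9 had an unchanged box 161 bases and a changed box 99 bases before the start, Vcl an unchanged box 227 bases before it, and Cnn1 neither form. Over windows that reach from 250 bases before to 50 after the start, an unchanged box was found in 1.63% of 32851 windows and a box with at most 1 change in 9.98%. Counted by gene, the shares were 1.81% and 11.3% of 27025 genes. Of 25 smooth muscle contractile genes outside the ranking, 22 had a window, 3 of them with an unchanged box (Myl6, Cnn2, Ldb3) and 4 with either form. Of 30 actin cytoskeleton genes, 28 had a window, 4 with an unchanged box (Vcl, Cnn2, Fhl1, Fhl2) and 9 with either form. The letters CATTCC, the MCAT element read on both strands, were in the windows of 16.6% of the 27025 genes, of 8 of the 22 and of 10 of the 28. Of the 15 genes highest in top cells of both libraries (named below), 10 had a window, 0 with an unchanged box, 1 with either form (Cd59a) and 4 with the MCAT letters. Acta2 and Vcl held it too, starting 146 and 143 bases before the start. These matches describe letters in a window and not binding.

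The 4 ranking genes chose the cells, so their levels are given as a description. Acta2 (chr19:34241090-34255590, reverse strand, GENCODE vM21 on GRCm38) stood at 5892 CPM in young top and 1482 CPM in young remaining cells, and at 6320 and 1181 CPM in the old library. Tagln (chr9:45929619-45936058, reverse strand) stood at 2717 and 1000 CPM in the young and 2197 and 570 CPM in the old library. Cnn1 (chr9:22099216-22109630, forward strand) had 695 and 112 CPM, and 275 and 44.8 CPM. Myl9 (chr2:156775420-156781658, forward strand) had 950 and 299 CPM, and 645 and 150 CPM. Acta2 alone gave 57.5% of the 4 genes' UMIs in young and 67.0% in old top cells, and it had the most UMIs of the 4 in 673 of 700 and 641 of 655 cells. The ranking is therefore mostly a ranking by Acta2. Cnn1 was absent from 53 young and 150 old top cells, and Myl9 from 7 and 19.

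Single cells varied widely around these levels. Acta2 ran from 1778 to 27067 CPM over young top cells (median 5234) and from 1371 to 22300 CPM over old ones (median 5348). Cnn1 ran from 0 to 4269 CPM (median 573) and from 0 to 1918 CPM (median 183). Barcodes of endothelial cells, which should lack most of these transcripts, held them too. The 4 genes summed to 801 CPM in 1094 old endothelial barcodes (median depth 12046 UMIs) and to 1249 CPM in 33 young ones (10565), against 10254 CPM in young and 9436 CPM in old top cells.

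Each ranking gene was also measured in cells ranked by the other 3 genes. Without its own vote Acta2 was still 3.34-fold higher in the young (log2 1.74, 1.72 to 1.76) and 4.20-fold higher in the old top cells (log2 2.07, 2.05 to 2.09). The same measure was 2.42-fold and 3.41-fold for Tagln, 5.52-fold and 5.62-fold for Cnn1, and 2.93-fold and 3.99-fold for Myl9. Leaving out Acta2 changed the cells most, with 75.6% of young and 71.5% of old top cells kept. Leaving out Cnn1 kept 94.6% and 97.1%. When cells were ranked on a random 50% of their UMIs and measured on the others, Acta2 was 3.77-fold and 5.12-fold higher and Cnn1 6.13-fold and 5.36-fold. Both parts of the UMIs come from the same cells, so a high level in the measured part was largely set by the ranking. These values describe the ranking genes and are no independent support for the choice of cells.

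Other genes of the contractile apparatus were far higher in the top cells of both libraries, and several inflammatory and progenitor genes of adventitial fibroblasts were lower. Genes with at least 500 UMIs over the mesenchymal cells of a library were compared, without the 4 ranking genes. In the young library 186 of 7765 genes (2.40%) were at least 1.5-fold higher and 382 (4.92%) at least 1.5-fold lower in top cells. In the old library 171 of 8021 (2.13%) were higher and 489 (6.10%) lower. Scaled by the median gene instead of total UMIs, which moved log2 ratios by 0.04 and 0.10 as the medians of all genes were -0.04 and -0.10, the old split became 241 higher and 339 lower. Among 7457 genes compared in both libraries, 79 were higher in both, which is 50.3% of the 157 young and 48.8% of the 162 old genes. In the other direction 172 were lower in both, 50.4% of 341 young and 48.7% of 353 old genes. No gene past 1.5-fold in 1 library was past it in the opposite direction in the other. Since the same 4 genes set the ranking in both libraries, these overlaps do not show the pattern independently of the rule.

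Of 25 smooth muscle contractile genes outside the ranking, 16 of 19 compared were at least 1.5-fold higher and 0 lower in the young top cells, with a median log2 ratio of 1.38. In the old top cells 12 of 17 were higher and 0 lower (median 1.04). Myh11, the heavy chain of the smooth muscle myosin motor and the most specific marker of that cell type on the list, had 489 UMIs in young top cells (66.2 CPM) against 261 in the remaining cells (4.50 CPM). In the old library it had 291 (37.9 CPM) against 219 UMIs (3.99 CPM). That was 14.7-fold higher in young (log2 3.88, 3.66 to 4.10) and 9.52-fold higher in old top cells (log2 3.25, 2.99 to 3.51). Myh11 lies at chr16:14194535-14291372 on the reverse strand.

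Actg2, the smooth muscle γ-actin gene best known from visceral muscle, stood at 481 and 76.1 CPM in young top and remaining cells and at 552 and 78.6 CPM in old ones, 6.33-fold and 7.02-fold higher. Actin genes are near-identical over their coding parts, so reads of Acta2, Actg2, Acta1 and Actc1 may have been split between them and the levels of the scarcer ones are uncertain. Lmod1, which seeds actin filaments in smooth muscle, stood at 144 and 46.6 CPM in the young and 52.3 and 7.75 CPM in the old library, 3.09-fold and 6.74-fold higher. Des, the muscle intermediate filament desmin, had 87.3 and 16.5 CPM in the young library, 5.28-fold higher, and 11.5 and 5.59 CPM in the old one, where it had under 500 UMIs. In young top cells 3 cells held 27.4% of the Des UMIs. Kcnmb1, a subunit of a smooth muscle potassium channel, was under 500 UMIs in both libraries, at 6.63 and 1.28 CPM in young and 6.65 and 1.06 CPM in old top and remaining cells.

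Regulators of myosin activity were also higher. Mylk, the kinase that switches on the light chain, stood at 392 against 106 CPM in young cells (3.70-fold) and 319 against 157 CPM in old cells (2.03-fold). Ppp1r14a, an inhibitor of the phosphatase that reverses this step, stood at 52.9 against 17.6 CPM (3.0-fold) and 54.6 against 12 CPM (4.55-fold). Smtn, which encodes smoothelin of contractile smooth muscle, was 1.64-fold higher in young top cells (43.7 against 26.6 CPM) but 30.2 against 29.7 CPM in old cells (log2 0.03, -0.18 to 0.23). Cald1, caldesmon, which is also made by non-muscle cells, was 1.43-fold and 1.35-fold higher.

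**Figure D2:**
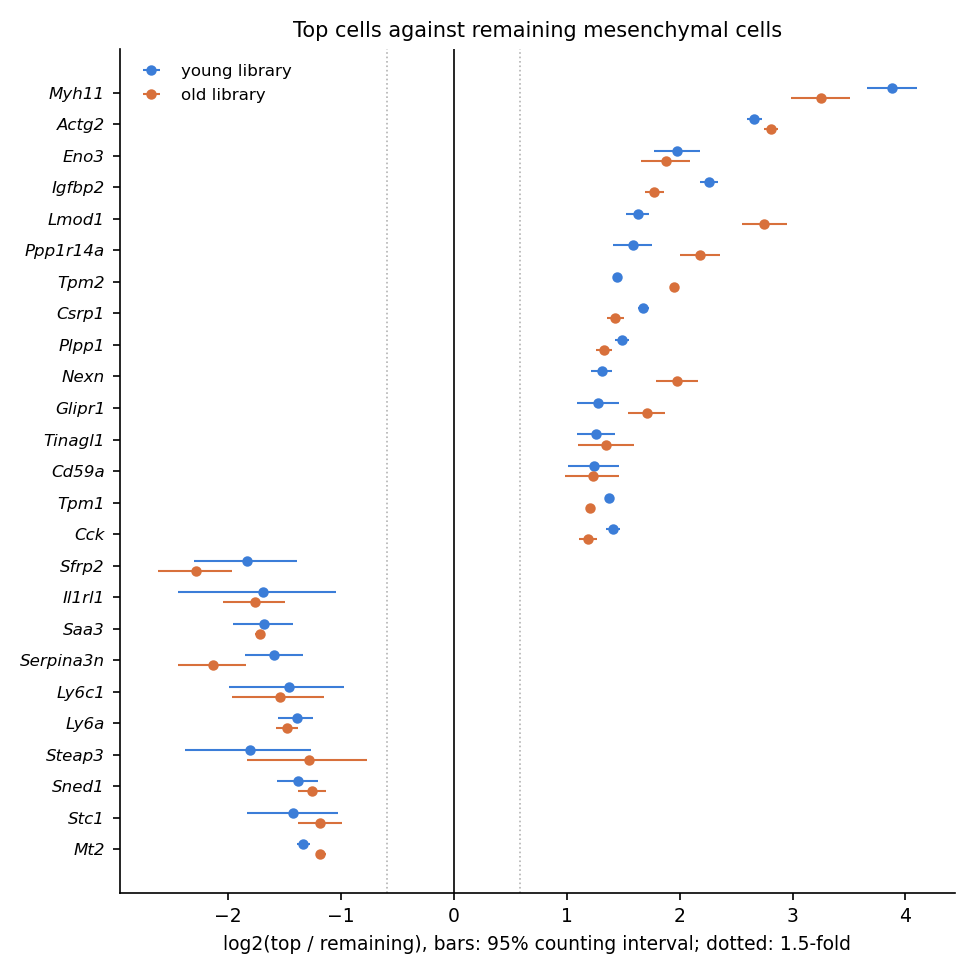
log2 ratio of CPM in top over remaining cells (x axis) for the 15 highest and 10 lowest genes of both libraries (y axis), with young and old libraries in separate colours, bars for 95% counting intervals and dotted lines at 1.5-fold. Myh11 stands highest, at 3.88 in the young library and 3.25 in the old, and Sfrp2 lowest, at -1.83 and -2.28.

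The 15 genes that were higher in both libraries by the widest margin, judged by the smaller of the 2 ratios, were led by Myh11 and Actg2. Next came Eno3, the muscle form of the glycolytic enzyme enolase, with 41.7 against 10.6 CPM in young and 34.9 against 9.52 CPM in old cells. Igfbp2, a binding protein of insulin-like growth factors, stood at 261 against 54.5 CPM and at 230 against 67.4 CPM. The tropomyosin genes Tpm2 (2.73-fold and 3.87-fold) and Tpm1 (2.61-fold and 2.31-fold), whose products lie along actin filaments, belonged to this group. So did the actin-associated proteins of Csrp1 (3.20-fold and 2.70-fold) and Nexn (2.49-fold and 3.93-fold). The list was completed by Lmod1, Ppp1r14a, Glipr1, the lipid phosphatase gene Plpp1 (2.81-fold and 2.52-fold), the matrix gene Tinagl1 (2.40-fold and 2.55-fold), the complement inhibitor gene Cd59a (2.36-fold and 2.34-fold) and Cck. Cck, the gene of the peptide hormone cholecystokinin, stood at 398 against 149 CPM in young and 205 against 89.9 CPM in old cells.

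Levels of these genes differed along the ranking and not at the border alone. Myh11 stood at 142 CPM in the highest 1% of young cells, at 77.5 CPM between 1% and 5%, at 39.1 CPM between 5% and 10%, and at 17.0 CPM in the next 10% of cells. From there it ran from 6.79 CPM in the following 10% to 1.06 CPM in the lowest 10%. The same bands of old cells held 67.2, 49.6, 20.4 and 14.0 CPM, and no later band exceeded 5.29 CPM. Lmod1 in young cells ran from 226 CPM in the highest 1% to 16.8 CPM in the lowest 10%, and Tpm2 from 2638 to 276 CPM. Ly6a, which encodes the stem cell antigen Sca-1, ran the other way, from 20.8 to 220 CPM in young and from 92.3 to 581 CPM in old cells. Saa3 had 288 CPM in the lowest 10% of young cells and at most 42.8 CPM in every other young band. Col1a1 was nearly level, between 1922 and 2332 CPM over all young bands and between 1367 and 1969 CPM over all old bands.

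**Figure D3:**
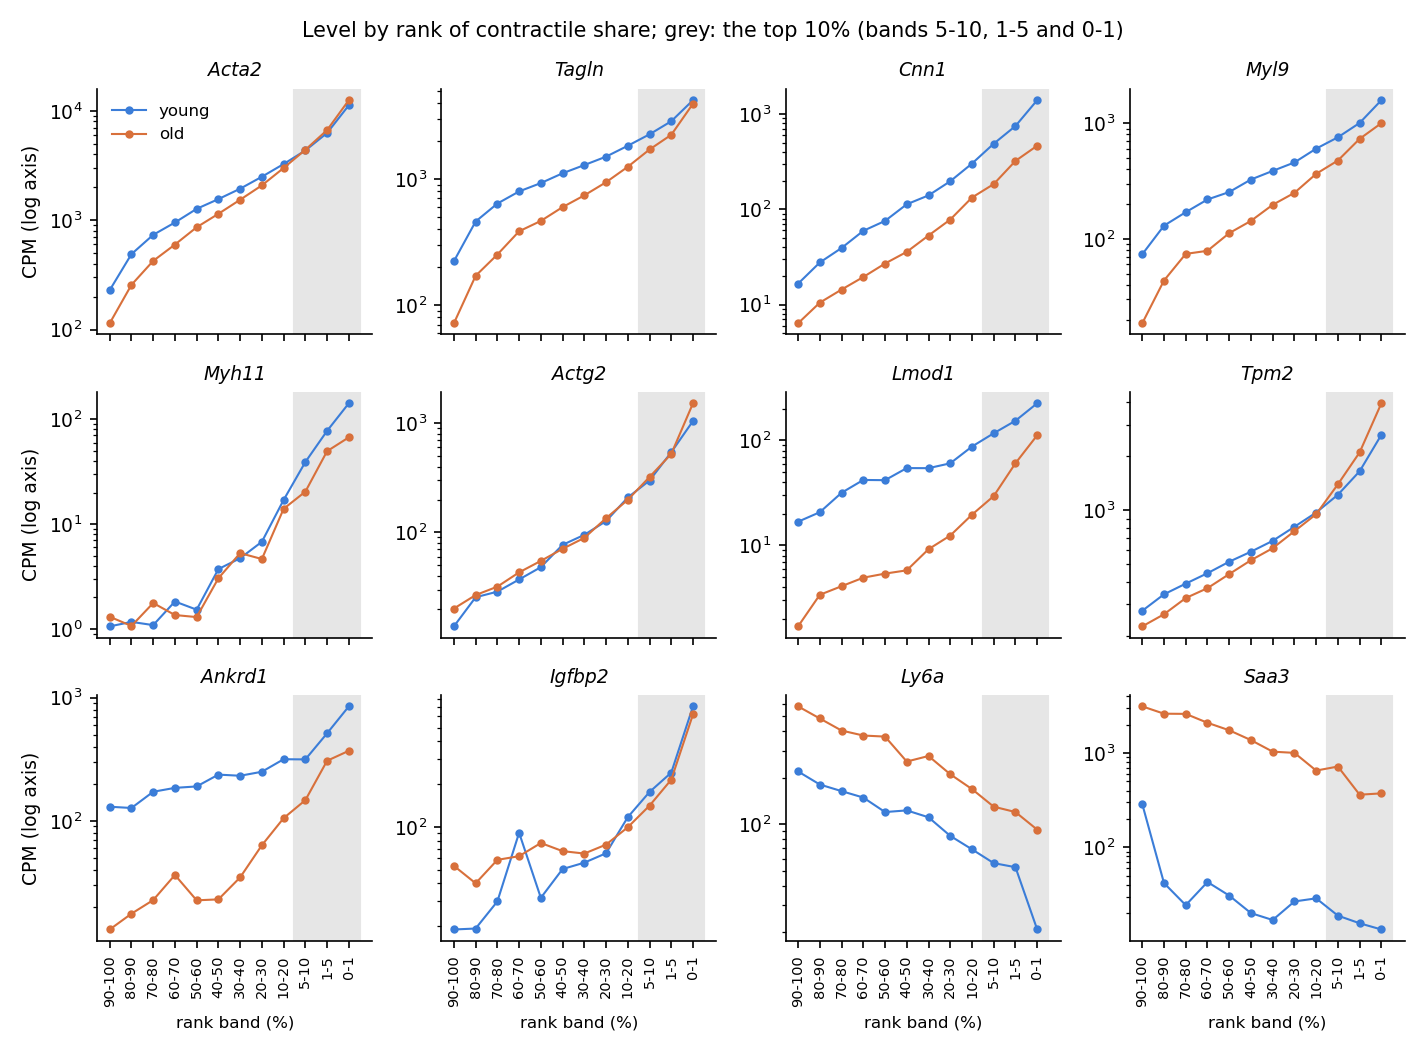
CPM of 12 genes (y axis, log scale) in bands of mesenchymal cells ordered by the share of the 4 ranking genes (x axis, lowest share on the left, top cells shaded), for the young and the old library. Myh11 runs from 1.06 CPM in the lowest band to 142 CPM in the highest 1% of young cells, while Ly6a is highest in the band of lowest shares, at 220 CPM in young and 581 CPM in old cells.

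Few cells carried the Myh11 transcripts. The young top cells held 11.3% of all mesenchymal UMIs but 65.2% of those of Myh11 (61.7 to 68.6), and the old top cells 12.3% and 57.1% (52.6 to 61.4). A Myh11 UMI was present in 194 of 700 young and 158 of 655 old top cells, and 64 and 37 of them held 3 or more, with at most 19 and 8 in a cell. In each library 40 cells held at least 50% of these UMIs. After thinning every cell to 3000 UMIs, which left out 7 young top cells and no old ones, a Myh11 UMI was present in 13.4% of young top cells (11 to 16.2) against 0.985% of remaining cells. In the old library it was 11% (8.70 to 13.6) against 1.05%. Before thinning the shares were 27.7% and 2.98% in the young and 24.1% and 2.85% in the old library. In endothelial barcodes, which should lack this gene, 0 of 31 young (interval up to 11.2%) and 0.370% of 1080 old barcodes held a UMI after thinning.

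Top cells with a Myh11 UMI differed from those without in other genes, though the former were deeper (median 10974 against 9420 UMIs in young and 11492 against 10604 in old cells) and depth raises the chance of seeing a UMI. In the young library Mylk stood at 741 against 234 CPM, Igfbp2 at 533 against 137 CPM, Ppp1r14a at 104 against 29.5 CPM and Des at 175 against 47.4 CPM. Among old top cells Actg2 stood at 985 against 398 CPM, Ankrd1 at 466 against 158 CPM and Eln, the elastin gene, at 43.7 against 17.9 CPM. Acta2 itself differed little, at 6355 against 5682 CPM in young and 7316 against 5965 CPM in old cells. Col1a1 was 2007 against 2216 CPM and 1587 against 1569 CPM, so the collagen level of the Myh11-positive cells was within 1.5-fold of that of the others.

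Genes of the non-muscle actin skeleton were higher by smaller steps. Of 30 such genes 29 were compared in each library, and 15 were at least 1.5-fold higher and 0 lower in both the young and the old top cells, with a median log2 ratio of 0.59 each time. Fhl1, a LIM protein of muscle, was 2.26-fold and 2.48-fold higher, Actn1, the actin crosslinker α-actinin, 1.85-fold and 2.17-fold, and Vcl 1.63-fold and 2.10-fold. Actb, the main non-muscle actin, stood at 7824 against 5430 CPM in young and 4878 against 2288 CPM in old cells. Of 9 actin and tropomyosin genes, 4 of 7 compared were higher in the young and 6 of 8 in the old top cells. The lists share members, so their counts are not independent. Actg2 is also a smooth muscle gene here, Itga8 is in the smooth muscle and integrin lists, and Ankrd1 in the regulator and YAP lists. Among 22 integrin and focal adhesion genes 4 of 15 were higher and 1 lower in young, and 2 of 15 higher and 1 lower in old top cells. Itga8, an integrin subunit of smooth muscle and other contractile cells, stood at 32.5 against 7.37 CPM in the young library (4.40-fold). Its old counts were 40 and 33 UMIs.

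Most listed regulators of this programme that could be compared were within 1.5-fold. Myocd held too few UMIs to show a difference of moderate size. Srf, serum response factor itself, stood at 29.6 against 25.2 CPM in young and 13.6 against 11.8 CPM in old cells. Of 25 listed cofactors and related regulators, 3 of 20 compared were higher and 1 lower in the young, and 3 of 16 higher and 1 lower in the old top cells. Over all genes 2.40% were higher and 4.92% lower in young, and 2.13% and 6.10% in old top cells. The higher ones included Ankrd1, a stress-responsive muscle ankyrin repeat protein (455 against 207 CPM in young, 239 against 39.3 CPM in old cells), and the transcription factor Foxs1 (1.81-fold and 2.10-fold). The lower one was Tbx20, a T-box factor, at 5.28 against 19 CPM and 7.30 against 13 CPM.

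Of 16 target genes of the mechanically controlled cofactor YAP and its partner TEAD, 4 of 14 were higher in young and 5 of 13 in old top cells, and 0 were lower. Ctgf, a matricellular protein and the best known of these targets, was 1.85-fold higher in young and 3.12-fold higher in old top cells. Genes that respond to transforming growth factor β (TGF-β) were split, with 4 of 23 higher and 2 lower in each library and medians of -0.12 and -0.20. Its ligand genes Tgfb3 (2.97-fold) and Tgfb2 (2.5-fold) were higher in the young top cells, against 1.52-fold and 1.43-fold in the old ones. The list of myofibroblast genes, which holds matrix and surface genes of activated fibroblasts, was mostly within 1.5-fold. Of 15 compared, 0 were higher and 2 lower in the young, and 2 higher and 1 lower in the old top cells. Postn (periostin) was 50.6 against 48.9 CPM and 73.9 against 84.3 CPM, and Cthrc1, another fibroblast activation gene, 165 against 118 CPM and 54.9 against 62.1 CPM.

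**Figure D4:**
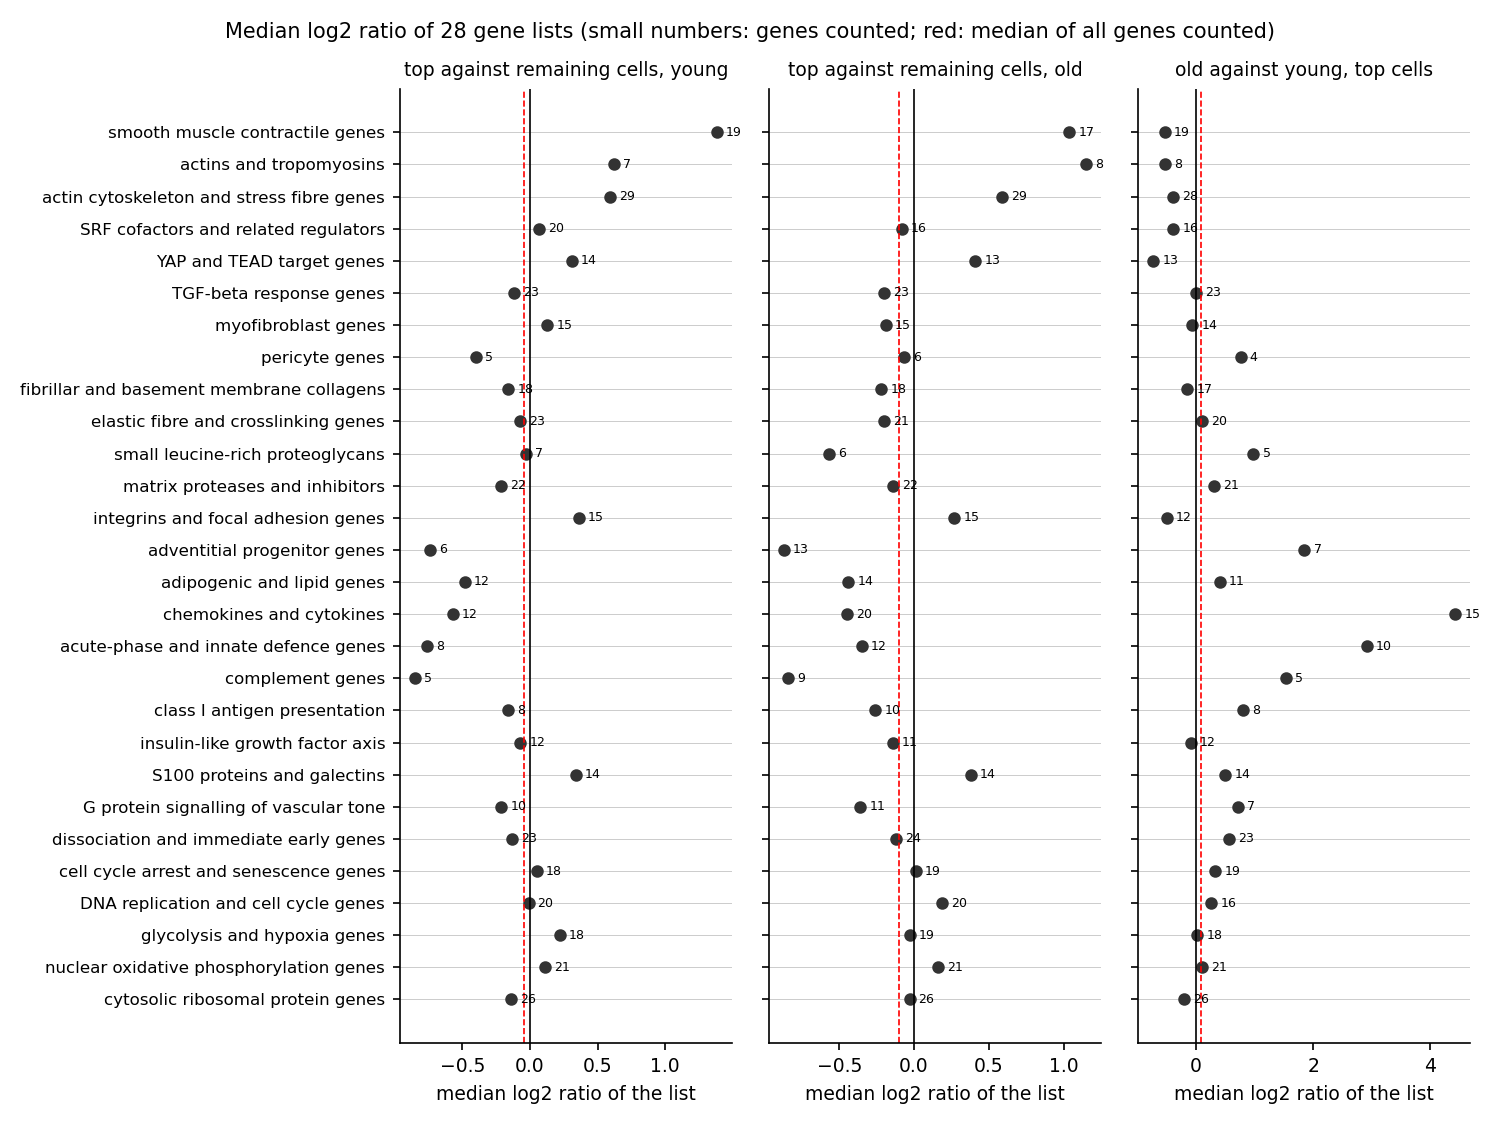
Median log2 ratio (x axis) of 28 gene lists (y axis) for top against remaining cells in the young and old library and for old against young top cells, with the number of genes compared beside each point and the median of all genes as a dashed line. Smooth muscle contractile genes have medians of 1.38 and 1.04 between top and remaining cells, and chemokines 4.42 between old and young top cells.

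Several genes of adventitial progenitors, proteoglycans, lipid metabolism and inflammation were lower in the top cells. The shares over all genes compared were 4.92% lower and 2.40% higher in young top cells. In old top cells they were 6.10% lower and 2.13% higher. Of 20 genes of adventitial progenitor fibroblasts, 4 of 6 compared were at least 1.5-fold lower and 0 higher in the young top cells (median -0.74). In the old top cells 11 of 13 were lower and 1 higher (median -0.87). Ly6a stood at 50.7 against 133 CPM in young and 122 against 338 CPM in old cells. Pi16, a marker of these progenitors, had 19.7 against 67.7 CPM in the old library, 3.44-fold lower, and 3 and 59 UMIs in the young one. Of 9 small leucine-rich proteoglycans, which bind collagen fibrils, 3 of 7 were lower in the young and 3 of 6 in the old top cells, Dcn (decorin) 1.91-fold and 1.98-fold. Most collagen genes were within 1.5-fold. Of 19 collagen genes compared as 18 in each library, 1 was higher and 2 lower in young, and 1 higher and 6 lower in old top cells. Their medians were -0.16 and -0.22, against -0.04 and -0.10 over all genes. Col3a1, which was also used by the collagen floor, stood at 714 against 1232 CPM and 638 against 1226 CPM, while Col1a1 and Col1a2 differed by less than 1.5-fold.

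Of 20 adipogenic and lipid genes 5 of 12 were lower and 1 higher in young, and 6 of 14 lower and 1 higher in old top cells. Lpl, lipoprotein lipase, was 2.67-fold and 2.05-fold lower, and Fabp5, a fatty acid binding protein, was the higher gene (1.54-fold and 2.60-fold). Pdgfra, a receptor gene typical of fibroblasts, stood at 56.1 against 117 CPM and 135 against 212 CPM. Of 23 chemokine and cytokine genes 6 of 12 were lower and 1 higher in young, and 9 of 20 lower and 2 higher in old top cells. Of 12 acute-phase genes 5 of 8 and 5 of 12 were lower and 0 higher, and of 18 complement genes 3 of 5 and 5 of 9 were lower with 1 higher each time.

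The 10 genes that were lower in both libraries by the widest margin came largely from these groups. Saa3, an acute-phase protein gene, stood at 16.9 against 54.1 CPM in young and 533 against 1747 CPM in old cells. Il1rl1, the receptor of interleukin-33, stood at 2.57 against 8.32 CPM and 15.3 against 51.6 CPM. Sfrp2, a secreted modulator of Wnt signals, was 3.55-fold and 4.86-fold lower, and the protease inhibitor gene Serpina3n 3.0-fold and 4.38-fold. Ly6c1, Ly6a, Steap3, the matrix gene Sned1, the secreted hormone gene Stc1 and the metallothionein gene Mt2 were between 2.26-fold and 3.47-fold lower.

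Lists of ribosomal protein, oxidative phosphorylation and glycolysis genes had at most 1 member past 1.5-fold in a library. Over all genes compared, 2.40% were higher and 4.92% lower in young, and 2.13% higher and 6.10% lower in old top cells. Of 26 ribosomal protein genes 0 were past 1.5-fold in either library (medians -0.14 and -0.03). Of 21 oxidative phosphorylation genes compared 1 was higher in young top cells and 0 in old ones. Of 18 and 19 glycolysis and hypoxia genes 0 were higher, and 0 and 1 lower. Immediate early genes, which respond to tissue digestion, had 2 of 23 higher and 0 lower in young and 2 of 24 higher and 1 lower in old top cells. Further lists gave the following counts. Genes of DNA replication and cell cycle had 0 of 20 past 1.5-fold in young and 4 of 20 higher in old top cells, in cells that had been chosen for no UMI of Top2a or Mki67. Insulin-like growth factor genes had 1 of 12 higher (Igfbp2) and 3 lower in young and 1 of 11 higher (Igfbp2) and 3 lower in old top cells. S100, galectin and annexin genes had 0 of 14 and 3 of 14 higher (medians 0.34 and 0.38), among them Anxa1 (1.22 on the log2 scale in old cells). G protein signalling genes of vascular tone had 0 higher with 1 of 10 lower in young and 4 of 11 lower in old top cells (medians -0.21 and -0.36). In old top cells the shares of higher genes in the immediate early, cell cycle and S100 lists were above the 2.13% of all genes.

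The remaining lists were mixed, and the shares over all genes in the paragraph above apply to them too. Of 25 elastic fibre and crosslinking genes 1 of 23 was higher and 3 lower in the young, and 2 of 21 higher and 2 lower in the old top cells. Of 25 matrix proteases and inhibitors 1 of 22 was higher and 5 lower, and 3 of 22 higher and 5 lower. Of 15 class I antigen presentation genes 1 of 8 and 1 of 10 were lower. Cell cycle arrest and senescence genes had 2 of 18 higher and 3 lower in young, and 1 of 19 higher and 1 lower in old top cells.

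Markers of other cell types were summed in the same way. The 10 pericyte markers summed to 41.5 against 38.9 CPM in the young and 108 against 101 CPM in the old library, and Rgs5, the leading pericyte gene, to 1.22 against 1.5 CPM and 12.9 against 13.5 CPM. Cspg4, on the same list, was in a larger share of top cells after thinning. It was in 2.60% (1.55 to 4.07) against 0.624% of young and 2.90% (1.76 to 4.49) against 0.739% of old cells. Notch3 was in 2.45% against 3.50% of young and 8.09% against 6.68% of old cells. Vtn was at 0 in both sets of top cells and Higd1b in the young ones. Endothelial markers summed to 11 against 13.2 CPM and 25.8 against 30.4 CPM, with Pecam1 and Cdh5 at 0 by rule. Macrophage markers summed to 14.3 against 16.1 CPM and 40 against 59.2 CPM, adipocyte markers to 139 against 161 CPM and 187 against 194 CPM, and Schwann and mesothelial markers to under 7 CPM in every set. Striated muscle markers were higher in the top cells, at 45.5 against 6.82 CPM and 22.8 against 10.9 CPM. A single young top cell held 60 of the 63 Actc1 UMIs, and the other main contributor was Acta1 (31.9 against 2.31 CPM), whose reads can be shared with those of its paralogs. In the old library 1 remaining cell held 234 of the 599 striated muscle UMIs, and without it the remaining cells stood at 6.65 CPM. How these levels bear on the contractile genes was not tested.

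The second comparison set the old top cells against the young ones. Old top cells held less transcript of several contractile genes, though not of Acta2, and far more of secreted inflammatory genes. Of 6209 genes with at least 200 UMIs over the top cells of both libraries, 814 (13.1%) were at least 1.5-fold higher and 374 (6.02%) at least 1.5-fold lower in old top cells. In the remaining cells 930 of the same genes were higher and 395 (6.36%) lower. Scaled by the median gene, which took 0.08 off each log2 ratio of the top cells, the split was 643 higher and 481 lower. The old top cells also reached down to a lower share of the 4 ranking genes, so the old and young cells are matched by rank and not by level. With the young border used in both libraries, an alternative added after the data were seen, 451 old cells remained.

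Among the ranking genes Acta2 stood at 6320 CPM in old and 5892 CPM in young top cells (log2 0.10, 0.08 to 0.12). Tagln was 1.24-fold lower in old top cells (2197 against 2717 CPM), Myl9 1.47-fold lower (645 against 950 CPM) and Cnn1 2.53-fold lower (275 against 695 CPM, log2 -1.34, -1.41 to -1.27). The cells were chosen by the sum of these genes within each library, so the direction of 1 gene is not independent of the others. With the young border in both libraries the log2 ratios were 0.30 for Acta2, -0.16 for Tagln, -0.39 for Myl9 and -1.11 for Cnn1. In the remaining cells Acta2 was 1.25-fold, Tagln 1.75-fold, Myl9 1.99-fold and Cnn1 2.49-fold lower in the old library.

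Of 19 smooth muscle contractile genes compared, 8 were at least 1.5-fold lower and 0 higher in old top cells, with a median of -0.53 against 0.08 over all genes. The shares over all genes were 6.02% lower and 13.1% higher. In the remaining cells 7 of the same 19 were lower and 0 higher (median -0.20). Des had 645 UMIs in young and 88 in old top cells, 7.61-fold lower (log2 -2.93, -3.27 to -2.60), and Itga8 240 and 40 UMIs, 6.23-fold lower. Lmod1 was 2.76-fold lower, and Myh11 1.74-fold (log2 -0.80, -1.02 to -0.59). In the remaining cells the log2 ratios of Itga8, Lmod1 and Des were -3.62, -2.59 and -1.57, against -2.64, -1.46 and -2.93 in top cells. With the young border in both libraries Myh11 stood at -0.50 on the log2 scale, under 1.5-fold, and Des at -2.85. Actg2 (552 against 481 CPM) and Ppp1r14a (54.6 against 52.9 CPM) stood at about the same level in both, and Tpm2 was 1.29-fold higher in old top cells while Tpm1 was 2.28-fold lower. Of 28 actin cytoskeleton genes 12 were lower and 1 higher (median -0.39), among them Myh10, a non-muscle myosin (log2 -1.83), and Vcl (log2 -1.49). In the remaining cells 15 of the same 28 were lower and 2 higher (median -0.59). Of 13 YAP and TEAD targets 7 were lower and 0 higher in old top cells (median -0.73). In the remaining cells 8 of these 13 were lower and 0 higher (median -0.87). Srf was 2.19-fold lower in old top cells (29.6 and 13.6 CPM, log2 -1.13) and stood at -1.10 on the log2 scale in the remaining cells.

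**Figure D5:**
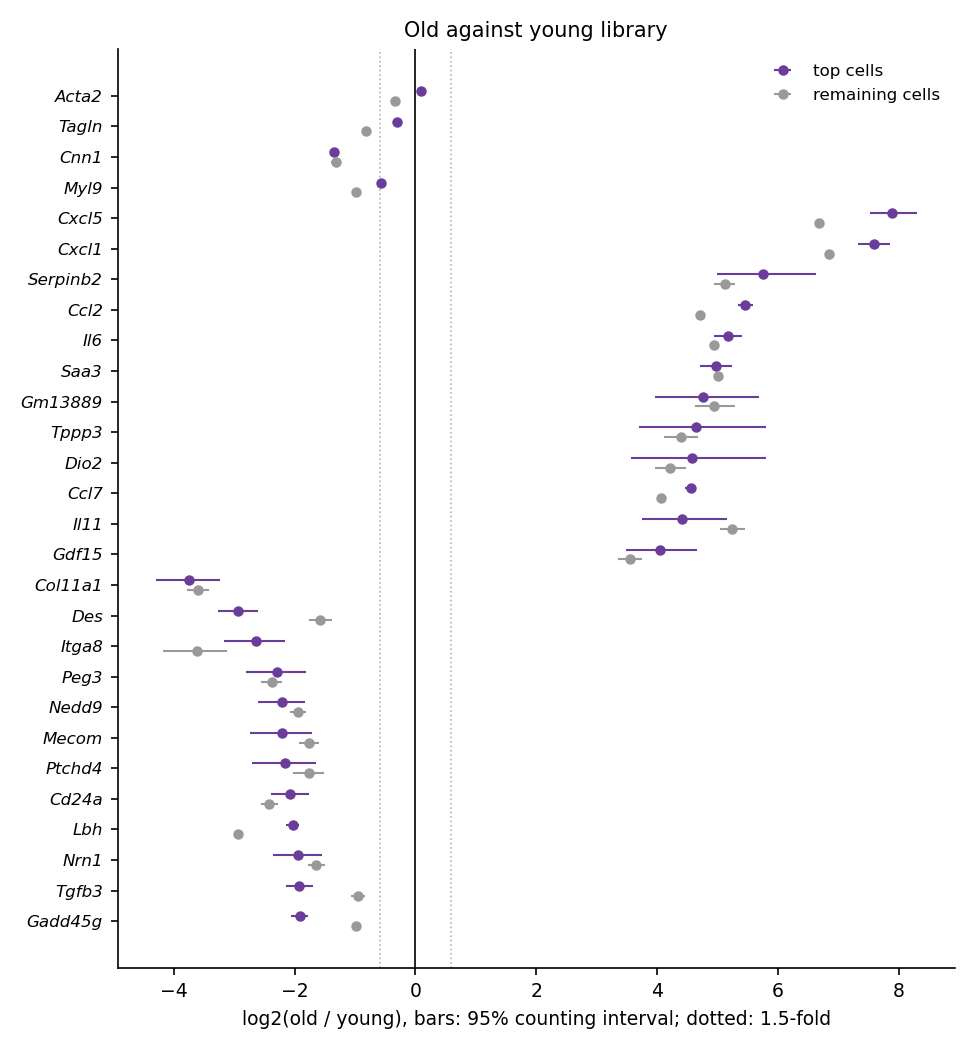
log2 ratio of CPM in the old over the young library (x axis) for the 4 ranking genes and the 12 highest and 12 lowest genes (y axis), in top and in remaining cells, with bars for 95% counting intervals and dotted lines at 1.5-fold. Cxcl5 stands at 7.89 in top and 6.69 in remaining cells and Col11a1 at -3.74 and -3.60, while Des is lower in top cells (-2.93) than in remaining cells (-1.57).

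The genes with the highest ratio in old top cells were led by chemokines. Cxcl5 (chr5:90759360-90761624, forward strand), which attracts neutrophils, had 56 UMIs in young (7.58 CPM) and 13828 UMIs in old top cells (1803 CPM), a log2 ratio of 7.89 (7.52 to 8.30). Cxcl1, of the same family, stood at 16.1 and 3092 CPM (log2 7.59), and the monocyte chemokines Ccl2 at 74.7 and 3296 CPM and Ccl7 at 142 and 3354 CPM. Of 23 listed chemokine and cytokine genes 15 were compared, and 13 were higher and 0 lower in old top cells (median 4.42). Over all genes 13.1% were higher and 6.02% lower. Of 12 listed acute-phase genes 10 were compared, and all 10 were higher (median 2.91). Genes were let in by their UMIs over the top cells of both libraries together. A gene scarce in the young library, such as Cxcl5, could thus pass only through its old UMIs. This can raise the counts and medians of these lists and of those below, which hold for the genes compared alone. Il6 (36.2-fold), Il11 (21.4-fold), the protease inhibitor gene Serpinb2 (53.8-fold) and Saa3 (31.5-fold) belonged to the 12 named genes with the highest ratio. So did Gdf15, a stress-induced cytokine (16.6-fold), Dio2, which activates thyroid hormone (23.8-fold), Tppp3 and the predicted gene Gm13889. All 8 class I antigen presentation genes compared were higher (median 0.81), as were 6 of 7 adventitial progenitor genes (median 1.85) and 3 of 5 complement genes (median 1.53). In the remaining cells the medians of the same lists were 4.27 for chemokines, 3.04 for acute-phase genes, 0.97 for class I genes and 2.64 for progenitor genes.

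The genes with the lowest ratio were led by Col11a1, a minor fibrillar collagen, at 57.5 CPM in young and 4.30 CPM in old top cells (log2 -3.74, -4.30 to -3.23). Des and Itga8 followed. The imprinted zinc finger gene Peg3 was 4.90-fold, the adhesion scaffold gene Nedd9 4.63-fold and the transcription factor gene Mecom 4.61-fold lower. Ptchd4, Cd24a, Lbh and Nrn1 were between 3.83-fold and 4.47-fold lower, Tgfb3 3.78-fold and Gadd45g, a growth arrest gene, 3.75-fold. Col8a1, a collagen of vessel walls, went the other way and stood at 326 CPM in old and 133 CPM in young top cells.

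The other lists gave these counts between the ages, beside 13.1% higher and 6.02% lower over all genes compared. Counts of few genes near these shares say little about a list. Of 17 collagen genes 6 were higher and 3 lower in old top cells, of 20 elastic fibre genes 2 higher and 4 lower, and of 21 proteases and inhibitors 6 higher and 4 lower. TGF-β response genes had 4 of 23 higher and 5 lower (median 0.00), and myofibroblast genes 2 of 14 higher and 5 lower. Eln was 2.09-fold lower (51.4 and 24.6 CPM). Immediate early genes had 11 of 23 higher and 0 lower (median 0.56), among them Atf3 (log2 3.10), and 11 of 23 were higher in the remaining cells too. Ribosomal protein genes had 1 of 26 lower and 0 higher, and oxidative phosphorylation genes 2 of 21 higher. Markers of other cell types also differed between the libraries. Endothelial markers summed to 25.8 CPM in old and 11 CPM in young top cells, macrophage markers to 40 and 14.3 CPM and pericyte markers to 108 and 41.5 CPM, and the old library held 1094 endothelial and 61 macrophage barcodes against 33 and 0. The part of these other cells in the values of the old top cells was not tested.

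For some genes the ratio of old to young differed between top and remaining cells, which was not tested because there is 1 library per age. Ankrd1 was 1.90-fold lower in old top but 5.27-fold lower in old remaining cells, so that the old top cells stood 6.08-fold and the young top cells 2.20-fold above their remaining cells. Smpd3, a sphingomyelinase gene, Prex2, an activator of Rac, the secreted protein gene Angptl1 and Aldh1a1, which makes retinoic acid, showed the same kind of difference. Aldh1a1 stood at 105 and 38.7 CPM in young and old top cells and at 117 and 17.9 CPM in the remaining cells. In the opposite direction Tgm2, a crosslinking transglutaminase, stood at 55.5 and 23.5 CPM in young and old top cells against 18.3 and 20 CPM in the remaining cells. Acta1, Des, Crispld2 and Gm45716 belonged to the same group of 5, and Acta1 reads can be shared with those of its paralogs. Acta1 was 1.72-fold lower in old top but 2.89-fold higher in old remaining cells, where 1 cell held 149 of 367 UMIs. With the cell of most Acta1 UMIs left out of every set, an alternative added after the data were seen, the ratio in the remaining cells was 1.80-fold.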

How the data were processed

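Single-cell RNA was measured in 1 young and 1 old library. The authors deposited UMI counts per gene and barcode, made with Cell Ranger 3.0.1 per the file headers, on mm10 per the submitters' processing notes. How the deposited barcodes were selected is not stated in the labels or headers. Of 31053 gene IDs, 31011 were found in GENCODE vM21, which gave positions.

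Cells were chosen by the rule stated at the opening, from the counts as deposited. The members and the 28 gene lists were chosen with earlier results of these data known. UMIs were summed per library and cell set and scaled to CPM by the total UMIs of that set. Ratios have exact conditional Poisson intervals and shares exact Clopper-Pearson intervals, both at 95% and for counting error only. A count of 0 allows up to 3 counts. Genes past 1.5-fold were counted among those with at least 500 UMIs over top and remaining cells of a library, or 200 UMIs over the top cells of both libraries. No test across libraries is possible with 1 library per age. For shares of cells with a UMI, cells were thinned to 3000 UMIs. Doublets were kept, and removing the highest Scrublet scores, at 0.8% of cells per 1000 barcodes, was an alternative (1302 young and 1504 old barcodes, 10.2% and 11.0%).

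The named genes were the 15 highest and 10 lowest between top and remaining cells, by the smaller absolute log2 ratio of both libraries and with at least 500 UMIs in each. For age they were the 12 highest and 12 lowest with at least 200 UMIs, and the 5 highest and 5 lowest in the difference of the age ratio between top and remaining cells. Ranking genes, mitochondrial, ribosomal protein, haemoglobin, immunoglobulin and sex-linked genes were left out of these rankings, as were genes under 10% of the CPM of a reference set of other cells with at least 30 barcodes. Up to 4 members of each list, the cell type markers and a fixed set of contractile, pericyte and fibroblast genes could also be named. Myl6 and Ldb3 fall outside this rule and were named for a box in their promoter window, after that was seen. The split of top cells by a Myh11 UMI was also chosen after the values were seen. The scripts were tested on simulated counts. Python 3.11.15, numpy 2.4.6, scipy 1.17.1, pandas 2.3.3, matplotlib 3.10.9 and scanpy 1.11.5 were used.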

Additional observations from a re-analysis of the deposited data

Results flagged for a closer look

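The genes named by rank were searched for those whose counting intervals lay on opposite sides of 0 in the young and the old library, with at least 1.5-fold between top and remaining cells in 1 of them. There were 5, and other named genes crossed 0 by less or with wider intervals, such as Ccl7. Smpd3, Aldh1a1, Crispld2 and Gm45716 had been named for this same difference, given above as that of the age ratio between top and remaining cells. Their presence here therefore follows from how they were named and is no separate finding. None of these differences was tested, since there is 1 library per age. Ccl2 had a log2 ratio of top to remaining cells of -0.59 for young and 0.17 for old cells, a difference of 0.76. Smpd3 stood at -0.22 and 1.11 (difference 1.33) and Aldh1a1 at -0.16 and 1.12 (difference 1.28). Crispld2 went the other way, at 1.36 and -0.34 (difference -1.70), as did Gm45716 at 0.53 and -1.05 (difference -1.58).

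Barcodes outside the mesenchymal cells also held a high share of the 4 contractile genes. Of barcodes with under 10 collagen UMIs, 23.8% in the young library (188 of 791, 20.8 to 26.9) and 11.4% in the old library (229 of 2017, 10.0 to 12.8) had a share over the border of the top cells. Myh11 stood at 24.7 CPM in the young barcodes over the border and at 24.0 CPM in the old ones. Their median depths were 3792 and 4793 UMIs, below those of the top cells.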

How the results depend on the processing

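No paired analysis was possible because each age has 1 library. Over 2916 alternative values of 162 combinations of gene and comparison, 0 values past 1.5-fold changed sign, and 501 alternatives lay outside the counting interval of the value given in the report. Of 2178 alternatives of 121 values past 1.5-fold, 2165 stayed past it the same way and 13 were under it, of Acta1, Gm45716 and Myh11 between the ages and of Pdgfra, Cxcl1 and Eln between top and remaining cells. The cause was not tested. Many of these values were named for extreme ratios in the same data, and several settings drew all their top cells from those described. Staying past 1.5-fold was therefore partly set in advance. The settings that left out each ranking gene in turn, the young border in both libraries and leaving out the highest cell of each gene were chosen after seeing the data. The counts moved by over 1.5 times with the share of cells called top and with the UMI floor. With the top 5%, 696 young and 736 old genes were lower in top cells (382 and 489 with the top 10%) and 491 higher in old top cells (814), where 4103 genes were compared in place of 6209. With the top 20%, 211 young and 317 old genes were lower. With floors of 100 UMIs and, for age, 40 UMIs, 363 and 990 young genes were higher and lower in top cells, 330 and 1045 old genes, and 1730 and 816 in old against young top cells. With a floor of 1 UMI these counts were 5180 and 1885, 5178 and 1983, and 3661 and 3003, as genes with few UMIs were let in. For the other count results and settings the counts stayed within 1.5 times. Acta2 in old against young top cells ran from 0.02 with median scaling to 0.30 with the young border. Depth limits genes such as Myocd, Pln and Kcnmb1, whose few UMIs cannot show a difference of moderate size.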

Other observations

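Cycling barcodes, which the rule left out, held the contractile genes as well, at about the rate of the mesenchymal cells. The border was set at the highest 10% of mesenchymal cells, so a share near 10% is the same rate. Among barcodes past the collagen floor with a UMI of Top2a or Mki67, 411 of 4227 in the young (9.72%, 8.85 to 10.7) and 445 of 4146 in the old library (10.7%, 9.81 to 11.7) had a share over the border of the top cells. Myh11 stood at 73.4 CPM in those over the border in the young and at 38.3 CPM in the old library, against 66.2 and 37.9 CPM in the top cells. Among barcodes left out for a Malat1 level under the floor, 59 of 355 young (16.6%) and 47 of 196 old (24.0%) were over the border.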
